A study of Mus musculus with 12 samples.

Results

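The genes described here are 10 markers of macrophages that enter a tissue from the blood or live along its vessels, taken by symbol from the 50559 genes of a retinal count table. Lyz2, Cd68, Cd14 and Ly6c2 mark monocytes and phagocytes. Mrc1, Cd163, Lyve1, F13a1, Ms4a7 and Pf4 mark perivascular macrophages. RNA-Seq was performed on retinas of wild-type C57BL6/J mice at postnatal day 28 (P28), in 4 groups of 3 libraries. All pups had 30 µg of antibody at P1, either a control IgG isotype (IgG groups) or the rat monoclonal APB5 (APB5 groups), which blocks mouse PDGFRB, the receptor by which growing vessels recruit pericytes. The IgG+Mino and APB5+Mino groups were also given minocycline, a tetracycline antibiotic that dampens microglial activation, daily from P5 to P27 at 45 mg/kg. The antibody was given to the whole pup and was not confined to the retina. Each library is bulk retina, in which fewer cells of a type and less RNA per cell cannot be told apart. There were 3 mice in each group, and whether a library held 1 or both retinas of a mouse is not given in the sources used here. The libraries held 52740545 to 59411044 counts.

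Macrophages of the central nervous system and retina come in several kinds. Microglia live in the tissue and are recognized by genes such as P2ry12 and Tmem119. Perivascular macrophages sit on the outer side of vessels and carry scavenger receptors such as MRC1, CD163 and LYVE1. Monocytes arrive from the blood with LY6C and lysozyme on board and turn into macrophages in the tissue. No gene of the 10 belongs to a single kind of cell. CD68 and CD14 occur in microglia too, LYVE1 is a marker of lymphatic endothelium, and PF4 is a platelet chemokine.

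Lyz2 (chromosome 10, 117111557 to 117118346, minus strand, GRCm39) and Ly6c2 (chromosome 15, 74980003 to 74988467, minus strand) each have a near-identical neighbour, so their first 60 coding bases are shown from the GENCODE models, with bases that differ from the neighbour in capitals.
Lyz2: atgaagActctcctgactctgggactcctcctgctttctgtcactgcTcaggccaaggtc
Lyz1: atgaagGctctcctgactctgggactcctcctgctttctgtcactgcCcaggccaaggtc
Ly6c2: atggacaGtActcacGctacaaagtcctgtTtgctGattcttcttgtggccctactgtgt
Ly6c1: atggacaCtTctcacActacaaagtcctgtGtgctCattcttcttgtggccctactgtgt
Over 444 coding bases Lyz2 and Lyz1 differed at 22, and over 393 coding bases Ly6c2 and Ly6c1 differed at 9. Of all 50-base windows of the Lyz2 transcripts, 6.2% were also found in transcripts of another gene, and for Ly6c2 the share was 34.7%. For Cd68, Cd14, Mrc1, Lyve1 and Pf4 no window was shared. How reads that fit several genes were counted is not given in the sources used here, so Ly6c2 counts in particular are uncertain.

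Transcription in macrophages depends on the factor PU.1, which binds purine-rich sites. The letters GAGGAA were therefore searched for on both strands in the 250 bases before each start site of the RefSeq promoter table. For the macrophage genes, 11 promoters of 8 of the genes were taken, and none of Cd14 or Lyve1 was among them. Of these promoters 6 (of Cd68, F13a1, Mrc1, Pf4 and 2 overlapping ones of Ly6c2) held the letters, as did 23.3% of all 32851 promoters. The stretches just before Mrc1 (chr2:14234001-14234150, plus strand), Ms4a7 (chr19:11313511-11313660, minus strand) and Lyz2 (chr10:117118347-117118427, minus strand) are shown in GRCm39 because these 3 genes had the smallest adjusted P of the 10 between APB5+Mino and APB5 libraries, with GAGGAA or its reverse complement TTCCTC in capitals.
Mrc1: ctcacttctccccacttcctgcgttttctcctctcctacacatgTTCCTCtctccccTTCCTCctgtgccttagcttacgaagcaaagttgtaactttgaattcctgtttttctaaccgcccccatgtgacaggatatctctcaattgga
Ms4a7: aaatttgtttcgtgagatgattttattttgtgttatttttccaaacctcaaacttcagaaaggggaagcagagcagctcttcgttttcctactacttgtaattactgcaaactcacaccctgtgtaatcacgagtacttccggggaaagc
Lyz2: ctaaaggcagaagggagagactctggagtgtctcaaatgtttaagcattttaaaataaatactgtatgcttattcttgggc
The Mrc1 stretch held the letters 2 times, and the other stretches did not hold them. A match of 6 letters is a description of the sequence and shows no binding.

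Before the comparisons, the libraries were checked against their labels. Gnat1, the transducin subunit that relays the light signal in rods, was at 9470 to 15510 CPM (counts scaled by library size after TMM normalization) in 11 libraries, as in retina, and at 2802 CPM in APB5 replicate 3. That library stood apart from the others on the first principal component (126.6, against −53.8 to 25.6). It also had the highest summed CPM of the fibroblast list (792.8, with Col1a2 the most abundant gene), where the other 11 libraries had 18.3 to 62. The pigment epithelium and melanocyte list, led by Ttr, summed to 799 CPM there and to 41 to 171 CPM elsewhere. Of the 8 genes in each of these lists, 0 were absent from all 12 libraries. The part of these other cell types in the macrophage values of APB5 replicate 3 was not tested, and the main fold changes and medians that include it are also given without it, for medians, correlations and genes outside the 10 as an alternative chosen after the data were seen. Xist, the RNA of the inactive X chromosome, was high in all IgG libraries, in APB5 replicate 3 and in APB5+Mino replicate 3 (at least 47210 counts), and low in the rest (at most 38 counts). Thus IgG and IgG+Mino differ in sex as well as in treatment, and the 2 cannot be told apart there. The same holds for APB5 against IgG once APB5 replicate 3 is left out, since the other APB5 libraries were low in Xist and all IgG libraries high.

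In control IgG retina the macrophage genes fell into 3 tiers when counted per kb of exon. The length used was the union of all annotated exons of a gene, which need not match the transcripts present, and the tiers depend on it. Lyve1 (1.68 ± 0.561 CPM per kb, SD, n = 3) and Cd68 (1.39 ± 0.304) were highest, and their libraries overlapped. Cd14 (0.606 ± 0.149) and Lyz2 (0.503 ± 0.121) came next and also overlapped. The rest formed a low tier from Mrc1 (0.0971 ± 0.032) and Pf4 (0.0825 ± 0.00379) through F13a1 (0.0615 ± 0.0338), Cd163 (0.0504 ± 0.0357) and Ms4a7 (0.0364 ± 0.016) to Ly6c2 (0.017 ± 0.017). Neighbours within this tier did not differ beyond their spread. In the APB5 group Lyz2 led instead, at 16.1 ± 24.2 CPM per kb, with an SD above its mean. That order rested on APB5 replicate 3, and over the other 2 APB5 libraries Cd68 (2.45 CPM per kb) was above Lyz2 (2.12) and Lyve1 (1.44), with Lyz2 at 3.14 in one and 1.09 in the other. The order of Cd68 and Lyz2 hangs on the length used, 1369 bases for Cd68 and 3325 for Lyz2. In CPM, Lyz2 (10.4 and 3.61) was above Cd68 (3.47 and 3.23) in both of these libraries. LYVE1 binds hyaluronan and CD68 is a lysosomal membrane protein of phagocytes.

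**Figure D1:**
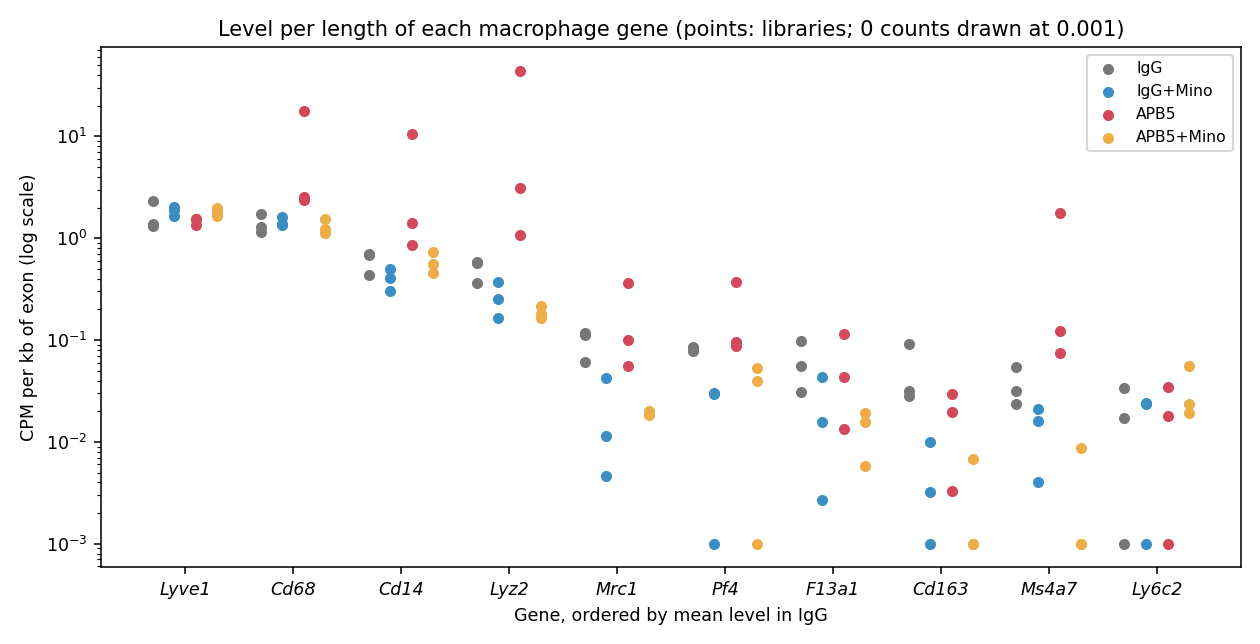
CPM per kb of exon, on a log scale, for the 10 genes in order of their mean in IgG retina, with 1 point per library (n = 3 per group, 0 counts drawn at 0.001). Lyve1 stayed near 1 to 2 CPM per kb in all groups, while Lyz2, Cd68, Cd14 and Ms4a7 had 1 APB5 library far above the others.

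The first comparison asked what pericyte recruitment block did to macrophage genes. Lyz2, Cd68, Cd14, Ms4a7 and Pf4 were higher in every APB5 library than in every IgG library, with mean differences that APB5 replicate 3 set almost alone. No gene in the table passed adjusted P ≤ 0.05 with a change of at least 1 on the log2 scale (0% of 20350 genes tested, by the quasi-likelihood test of edgeR with P adjusted by Benjamini and Hochberg's method), so none of the macrophage genes did. At an unadjusted P under 0.05 there were 1472 genes (7.23%), and DESeq2 called 87. Among the macrophage genes 4 were at an unadjusted P under 0.05 (Lyz2, Cd68, Cd14 and Ms4a7), and DESeq2 called 1 (Lyz2). Of the 10 macrophage genes, 5 were higher without overlap and 0 lower, where 7.79% of all genes tested were higher and 7.89% lower without overlap. The median log2 fold change of the 9 that were abundant enough to test was 1.08, and that of all genes tested was −0.0024. Without APB5 replicate 3 these medians were 0.14 and −0.00038, so that 1 library set the first of them. A gene of few counts is tested only if 1 group is high enough, as APB5 was for Ms4a7, so these medians describe the genes tested and support no direction.

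Lyz2 encodes lysozyme M, the antibacterial enzyme of macrophages and granulocytes. It had 69, 110 and 109 counts in the IgG libraries and 578, 198 and 9781 in the APB5 libraries, or 1.21, 1.93 and 1.88 CPM against 10.4, 3.61 and 146 CPM. All APB5 libraries were high, the third 14-fold above the next. With all libraries the gene differed by 5.0 on the log2 scale (SE 1.36, adjusted P = 0.664 by edgeR), and without APB5 replicate 3 it was 2.05 (adjusted P = 0.332). With the Lyz1 counts added, an alternative chosen after the data were seen, it was 4.96 (adjusted P = 0.664), and Lyz1 itself had 2, 11 and 9 counts in IgG and 38, 21 and 433 in APB5 retinas.

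Cd68 was at 1.75, 1.57 and 2.37 CPM in IgG and 3.47, 3.23 and 24.2 CPM in APB5 retinas. Cd14, the co-receptor that hands lipopolysaccharide to TLR4, was at 0.752, 1.19 and 1.21 CPM in IgG and 2.42, 1.48 and 18.4 CPM in APB5 retinas. For both genes the first 2 APB5 libraries lay above the IgG range, nearest to it for Cd14 in the second, and the third lay far above it. Their log2 fold changes were 2.45 and 2.82 (SE 0.803 and 0.931, adjusted P = 0.664 for both by edgeR), and 0.81 and 0.87 without APB5 replicate 3. Ly6c2, a surface antigen of inflammatory monocytes, had 0 to 9 counts in every library of the study and was too low to test. Its level did not differ detectably at this depth, where 3 counts correspond to 0.0448 to 0.0587 CPM.

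Among the perivascular genes only Ms4a7 and Pf4 were higher in APB5 retinas without overlap. Ms4a7, a membrane protein of macrophages other than microglia, had 8, 6 and 14 counts in IgG and 30, 18 and 533 in APB5 libraries. Pf4, a chemokine of platelets and some macrophages, had 12, 11 and 12 counts in IgG and 12, 13 and 61 in APB5 libraries, so that only APB5 replicate 3 was clearly apart. Their log2 fold changes were 3.96 (SE 1.22) and 1.08 (SE 0.568), and 1.25 and 0.14 without that library. Once that library was set aside Pf4 barely separated the groups, at 0.217 and 0.237 CPM in APB5 and 0.193 to 0.210 CPM in IgG.

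The remaining perivascular genes overlapped between APB5 and IgG. Mrc1, the mannose receptor, was at 0.472, 0.928 and 0.881 CPM in IgG and 0.434, 0.785 and 2.84 CPM in APB5 retinas, with a log2 fold change of 0.83 (SE 0.669) that turned to −0.30 without APB5 replicate 3. F13a1, the catalytic subunit of clotting factor XIII, had 12, 38 and 22 counts in IgG and 5, 16 and 52 in APB5 libraries. Cd163, the receptor that takes up hemoglobin bound to haptoglobin, had 10, 29 and 9 counts in IgG and 1, 6 and 11 in APB5 libraries. It was the only macrophage gene tested whose log2 fold change lay below −1, at −1.22 (SE 0.638, adjusted P = 0.672 by edgeR), and it was −1.66 without APB5 replicate 3 and −0.57 without IgG replicate 2. Its level in APB5 replicate 3 (0.164 CPM) lay inside the IgG range (0.155 to 0.508 CPM). Lyve1 was at 5.75, 5.55 and 9.69 CPM in IgG and 6.38, 5.62 and 6.37 CPM in APB5 retinas, and its difference of −0.18 (SE 0.256) was smaller than its error. Lyve1 was thus as high in APB5 replicate 3 as in APB5 replicate 1, while Lyz2 there was 14-fold higher.

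**Figure D2:**
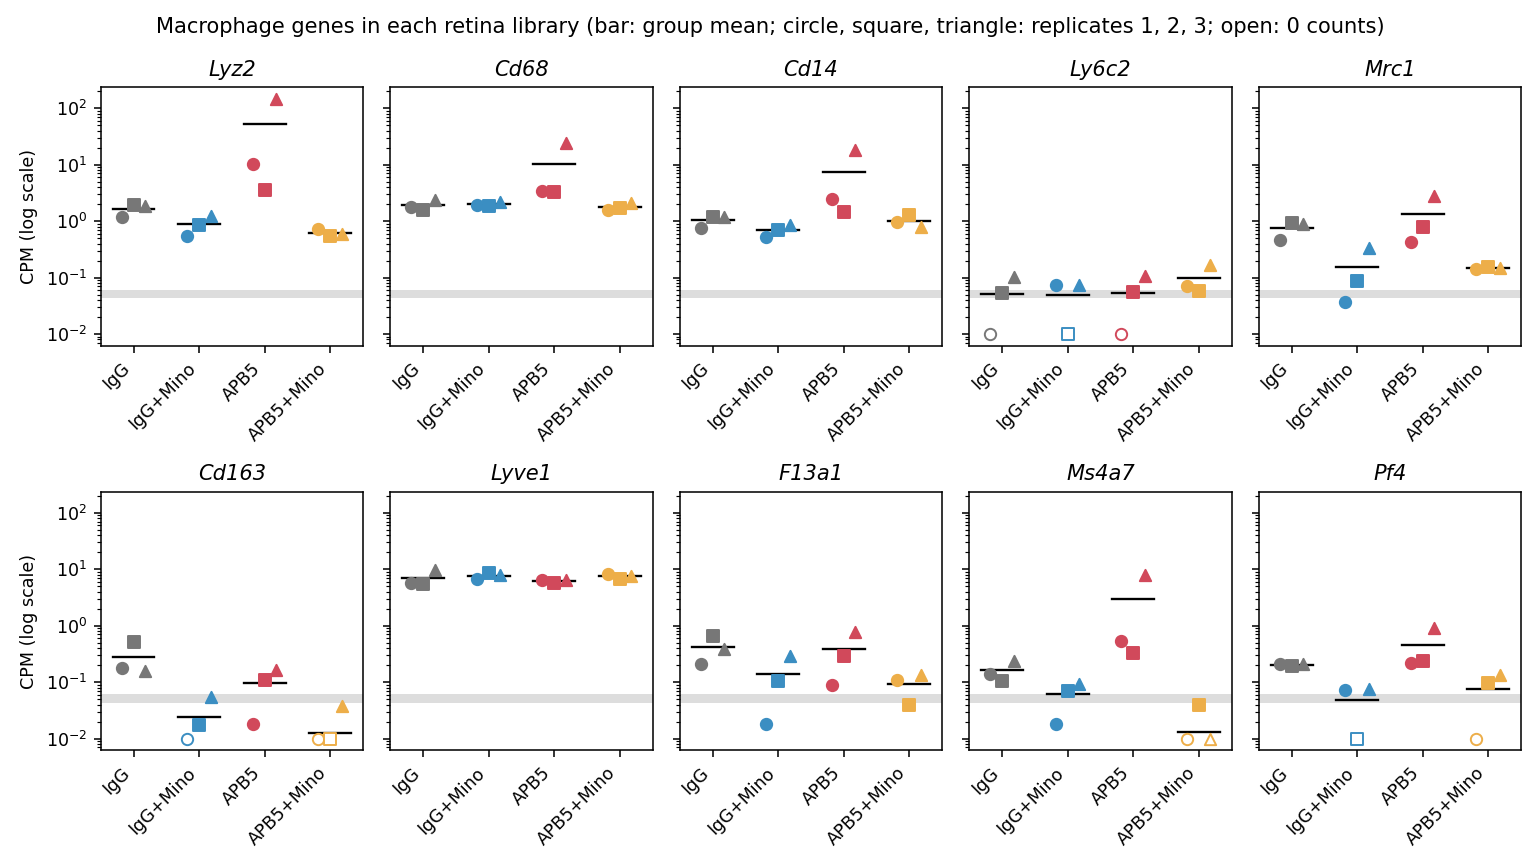
CPM of each gene, on a log scale, in the 12 libraries (circle, square and triangle for replicates 1, 2 and 3, bar for the group mean, open marker for 0 counts, grey band for the CPM of 3 counts). APB5 replicate 3 was the highest of the 12 libraries for 7 of the 10 genes, and all APB5+Mino libraries of Lyz2, Mrc1 and Ms4a7 lay below all APB5 libraries.

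The same library was high in other immune lists. Its summed CPM was 265 for the pan-myeloid list, led by Ctss, where the other libraries had 16.9 to 46.2. The monocyte list summed to 31.1 CPM there and to 1.82 to 4 CPM elsewhere, with S100a4 its most abundant gene (mean 2.73 CPM over the 12 libraries). The part of fibroblasts in that sum, whose own list was also high there, was not tested. Ccr2, the receptor that monocytes follow out of the marrow and named after its values were seen, had 40 counts in APB5 replicate 3, 4 in IgG replicate 3 and 0 in the other 10 libraries. The neutrophil list reached 8.43 CPM and the list of T, B and NK cells 7.89 CPM, and their highest sums elsewhere were 1.91 and 1.97 CPM. Of the microglia list, the chemokine receptor gene Cx3cr1 had 577 counts in APB5 replicate 3 and 9 to 290 in the others, and Fcrls had 1496 and 11 to 152. The list did not move as one in APB5 against IgG, with 6 of its 10 genes above 0 and 4 below. Without APB5 replicate 3 only 2 of the 10 were above 0, and the median log2 fold change turned from 0.48 to −0.295. P2ry12 was at 1.67 CPM in APB5 replicate 3, within the IgG range of 1.22 to 2.64 CPM. Siglech, named after its values were seen, was at 0.832, 1.22 and 1.38 CPM in APB5 and 1.87 to 2.02 CPM in IgG retinas, lower without overlap but not called (−0.72, adjusted P = 0.664 by edgeR). Relative to the mean of the IgG libraries, that library held 87.4-fold more Lyz2, 49.1-fold more Ms4a7, 17.5-fold more Cd14, 12.8-fold more Cd68, 4.49-fold more Pf4, 3.73-fold more Mrc1, 2.01-fold more Ly6c2 and 1.86-fold more F13a1, and 0.91 times as much Lyve1 and 0.588 times as much Cd163. In the other 2 APB5 libraries the pan-myeloid sum was 46.2 and 40.3 CPM, where the IgG libraries had 31 to 46 CPM, whereas the sum of Lyz2, Cd68, Cd14 and Ly6c2 (16.3 and 8.38 CPM) was above the IgG range (3.71 to 5.56 CPM). The fibroblast sum was above its IgG range in them too, at 47.8 and 62 CPM against 23 to 38.6 CPM, and its part in the result was not tested.

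**Figure D3:**
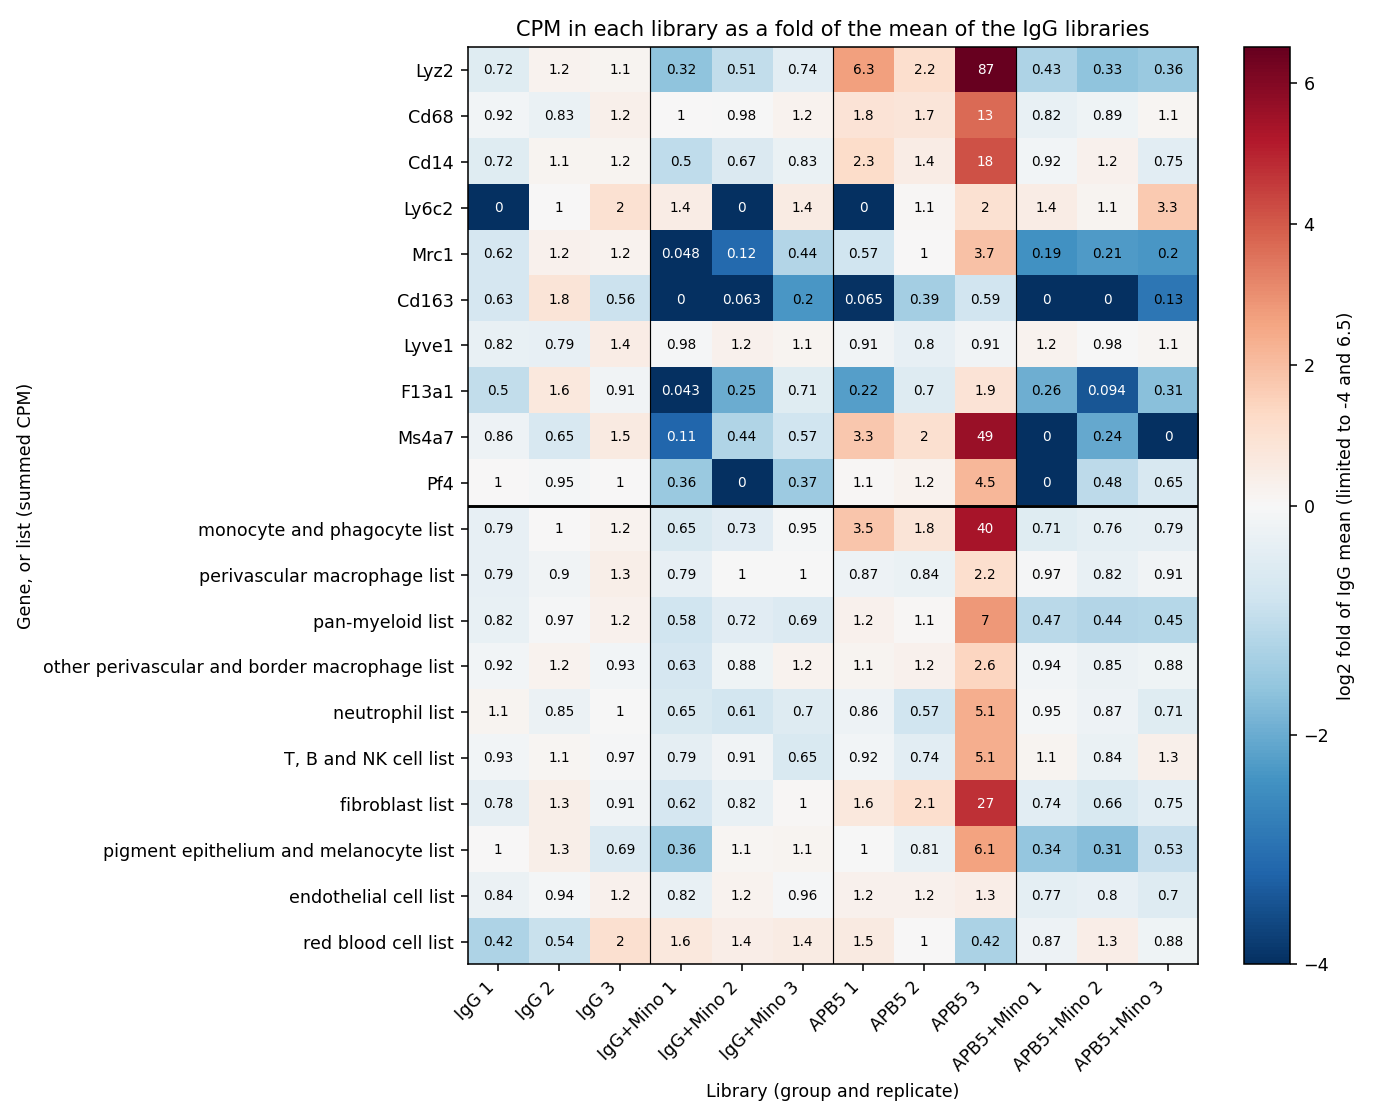
Level in each library as a fold of the mean of the IgG libraries, for the 10 genes and for the summed CPM of 10 lists, with colour on a log2 scale. APB5 replicate 3 was high for Lyz2 (87.4-fold), Ms4a7 (49.1-fold) and the fibroblast list (27-fold). Mrc1, Cd163 and Ms4a7 were below the IgG mean in the minocycline libraries of either antibody. Cd163 was also below it in the APB5 libraries without minocycline (0.065, 0.39 and 0.59 times the IgG mean).

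The second comparison asked what minocycline did in APB5-injected mice. Lyz2, Cd68, Cd14, Mrc1, Ms4a7 and Pf4 were lower in every APB5+Mino library than in every APB5 library, and Lyve1 was higher in every one. Without overlap, 22.8% of all genes tested were lower and 23.5% higher, so a separation of the groups was common here. With edgeR 336 of 20281 genes passed the threshold (1.66%), 166 of them lower, and 0 of the macrophage genes, of which 6 were at an unadjusted P under 0.05, as were 35.9% of all genes tested. Same-numbered libraries were taken as pairs in this comparison from weak correlations, since no pairing is given in the sources used here. With the number as a block 0 genes passed. Replicate 3 was the library high in Xist in both groups, so the block also separates the sexes. The adjusted P of Lyz2, Mrc1 and Ms4a7 lay just above the threshold, at 0.0528, 0.0532 and 0.0543 by edgeR, and at 0.0697, 0.0655 and 0.0641 with the block. The median log2 fold change of the 7 macrophage genes tested was −2.87, against −0.0205 for all genes tested. Of these 7, Mrc1, Ms4a7 and Pf4 were abundant enough only in the APB5 group, which fixes their direction. Without APB5 replicate 3 the medians were −1.23 and −0.0054. Lists of other cell types were lower along with the macrophage genes. The summed CPM of the fibroblast list was 19.3 to 22.2 in APB5+Mino and 47.8 to 792.8 in APB5 libraries, that of the pigment epithelium and melanocyte list 41 to 70.3 and 107 to 799, that of the pan-myeloid list 16.9 to 17.9 and 40.3 to 265, and that of the endothelial list 113.6 to 129.5 and 195.5 to 215.8. Without APB5 replicate 3 the median log2 fold changes of these 4 lists were −1.24, −1.15, −1.40 and −0.855, and of the 9 microglia genes tested all were below 0 with all libraries. The part of these cell types in the macrophage values was not tested.

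Lyz2 had 40, 28 and 32 counts in the APB5+Mino libraries, where the lowest APB5 library had 198. Its log2 fold change was −6.37 (SE 1.52), and −3.43 without APB5 replicate 3. Mrc1 had 8 counts in each APB5+Mino library and 24, 43 and 190 in the APB5 libraries, with a log2 fold change of −2.93 (SE 0.705) and −1.79 without APB5 replicate 3. Ms4a7 had 0, 2 and 0 counts in APB5+Mino and 30, 18 and 533 in APB5 libraries, a 263-fold ratio of the pooled CPM (95% counting interval 72.4 to 2180, for counting error only). The ratio without APB5 replicate 3, which held 533 of the counts, was 34.9-fold (9.15 to 297), and the fitted log2 fold change moved from −5.98 to −3.26. These 3 genes passed the threshold when APB5 replicate 3 was left out, with adjusted P of 0.00163, 0.0124 and 0.0062 by edgeR. Far more genes in all passed in that fit than with all libraries (counts are given below under the dependence on processing). Mrc1 and Ms4a7 entered that test through the APB5 group alone, so of the 3 only Lyz2 was abundant enough in both groups.

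Cd68 was at 1.56, 1.68 and 2.11 CPM in APB5+Mino retinas, within or near its range in IgG retinas. On the log2 scale it differed by −2.54 (SE 0.82, adjusted P = 0.0818 by edgeR), and −0.90 without APB5 replicate 3. Cd14 was at 0.966, 1.27 and 0.79 CPM, a difference of −2.87 on the log2 scale (SE 0.954, adjusted P = 0.0867 by edgeR), and −0.93 without that library. Pf4 had 0, 5 and 7 counts, a difference of −2.17 on the log2 scale (SE 0.809, adjusted P = 0.109 by edgeR), and −1.23 without that library. Cd163 had 0, 0 and 2 counts against 1, 6 and 11 in APB5, and F13a1 6, 2 and 7 against 5, 16 and 52. Both overlapped between the groups and were too low to test, and the pooled ratio for Cd163 was 8.14-fold with a counting interval of 1.95 to 72.4, and 5.09-fold (0.969 to 50.2) without APB5 replicate 3. Lyve1 was the exception in direction, at 8.27, 6.87 and 7.58 CPM, with a difference of 0.29 (SE 0.151, adjusted P = 0.206 by edgeR), and 0.33 without that library.

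Sex was balanced between these groups, with 1 library high in Xist in each. In the libraries low in Xist alone, a comparison of 2 with 2 chosen after the data were seen that also leaves out APB5 replicate 3, 572 genes passed edgeR's test and 4 macrophage genes did so, namely Lyz2 (−3.40, adjusted P = 0.013), Cd68 (−1.04, adjusted P = 0.032), Mrc1 (−1.80, adjusted P = 0.0494) and Ms4a7 (−3.09, adjusted P = 0.0315). Mrc1 and Ms4a7 entered this test too through the APB5 group alone, which fixes their direction. With all libraries DESeq2 called far more genes in all than edgeR (counts are given below under the dependence on processing). Lyz2, Cd68, Cd14 and Mrc1 were among them, and DESeq2 gave no adjusted P for Ms4a7.

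**Figure D4:**
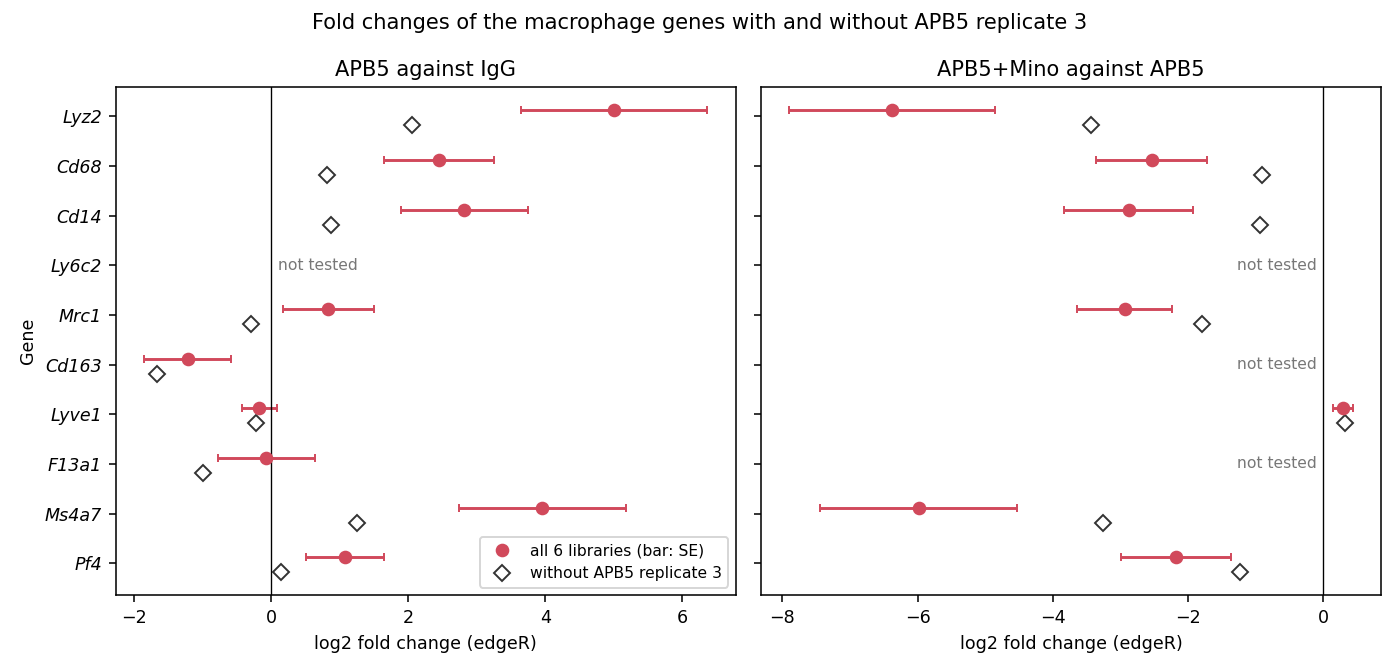
log2 fold change by edgeR of each gene in the APB5 against IgG comparison (left) and the APB5+Mino against APB5 comparison (right), with all 6 libraries (filled circles, bars for the SE) and without APB5 replicate 3 (open diamonds). Leaving that library out moved Lyz2 from 5.0 to 2.05 on the left and from −6.37 to −3.43 on the right, and the fitted value of Ms4a7 on the right rests on 2 counts in the APB5+Mino group.

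The third comparison was minocycline in control IgG retina, where sex differed fully between the groups. The genes that separated were 4 of the 6 perivascular ones. Mrc1, Cd163, Ms4a7 and Pf4 were lower in every IgG+Mino library than in every IgG library, 4 of the 10 genes and 0 higher, where 7.35% of genes tested were lower and 7.03% higher without overlap. Of the 7 macrophage genes tested 2, Mrc1 and Pf4, were lower without overlap. Mrc1, Pf4 and F13a1 were abundant enough only in the IgG group, which fixes their direction. Mrc1 had 27, 53 and 51 counts in IgG and 2, 5 and 18 in IgG+Mino libraries. Cd163 had 10, 29 and 9 in IgG and 0, 1 and 3 in IgG+Mino libraries. Ms4a7 had 8, 6 and 14 against 1, 4 and 5. Pf4 had 12, 11 and 12 against 4, 0 and 4. All 4 genes rested on few counts, and Cd163 and Ms4a7 were too low to test. The log2 fold changes were −2.08 for Mrc1 (SE 0.571) and −1.51 for Pf4 (SE 0.531), with adjusted P = 0.585 for both by edgeR, which called 6 of 20143 genes (0.0298%) and 0 macrophage genes, with 3 at an unadjusted P under 0.05 (8.37% of all genes) and 0 called by DESeq2. Of these 6 genes 5 were Xist, Ddx3y, Uty, Kdm5d and Eif2s3y, which lie on the sex chromosomes.

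F13a1 (12, 38 and 22 counts in IgG, 1, 6 and 16 in IgG+Mino), Lyz2 (30, 48 and 67 counts in IgG+Mino) and Cd14 overlapped between these groups, with log2 fold changes of −1.37, −0.90 and −0.56. When Xist was added as a term to the model of the 12 libraries, the sign turned for Lyz2 (1.74) and Cd14 (1.08), and F13a1 was −0.08. Xist was high in all IgG and low in all IgG+Mino libraries, so that term rested mainly on the APB5 and APB5+Mino groups. There APB5 replicate 3 was the only APB5 library high in Xist, so the turned signs cannot be read as an effect of sex. In the main fit Cd68 and Lyve1 were almost level, at 0.07 (SE 0.235) and 0.15 (SE 0.229). Of the genes tested, Lyz2 and Ms4a7 had the largest fitted differences in APB5 mice, and Mrc1 the largest in IgG mice. Ms4a7 and Mrc1 entered these tests through the group without minocycline alone, and Cd163 was too low to test in either comparison. Whether the order of the genes differed between the 2 minocycline comparisons was not tested. The pan-myeloid sum was 31 to 46 CPM in IgG and 22 to 27.4 CPM in IgG+Mino retinas, so that it separated these groups as well. Of the 10 microglia genes 9 had a log2 fold change below 0 and 5 were lower without overlap. The part of these lists was not tested.

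The fourth comparison set APB5+Mino against IgG+Mino, and all 10 macrophage genes overlapped, where 17.7% of genes tested were higher and 17.6% lower without overlap. edgeR called 246 of 20049 genes (1.23%), 0 of them macrophage genes, with 0 of these at an unadjusted P under 0.05 (29.3% of all genes) and 0 called by DESeq2. Only Lyz2, Cd68, Cd14 and Lyve1 were high enough to test, with log2 fold changes of −0.47 (SE 0.32), −0.16 (SE 0.198), 0.50 (SE 0.282) and −0.03 (SE 0.136). Lyz2 was at 0.543 to 1.24 CPM in IgG+Mino and 0.548 to 0.716 CPM in APB5+Mino retinas. An interval of 2 SE around the Lyz2 difference ran from −1.11 to 0.17, so a moderate difference was not detectable here. In contrast, Cx3cr1 and Fcrls of the microglia list were called lower in APB5+Mino retinas, with log2 fold changes of −2.21 (SE 0.379) and −1.92 (SE 0.3) and adjusted P of 0.0182 and 0.015 by edgeR. No gene passed in this comparison with all 12 libraries fitted together or with the Xist covariate. Neither Cx3cr1 nor Fcrls passed without IgG+Mino replicate 3 or without APB5+Mino replicate 2 or 3 (adjusted P of 0.0699 to 0.092 by edgeR), and Cx3cr1 did not without APB5+Mino replicate 1 (0.0538). They were also called lower in APB5+Mino than in APB5 retinas (−3.84 and −5.23, adjusted P = 0.0447 and 0.0476 by edgeR), though not with the replicate block (adjusted P = 0.0641 for both), without APB5 replicate 1 (0.105 for both) or without any 1 of the APB5+Mino libraries (0.117 to 0.214). They were −3.08 and −3.32 and still called without APB5 replicate 3. The 2 comparisons share the APB5+Mino libraries.

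Whether minocycline acted differently with the 2 antibodies was tested by the interaction in a fit of all 12 libraries. edgeR called 3 of 21228 genes (0.0141%) and 0 of the 9 macrophage genes tested, with 4 at an unadjusted P under 0.05 (17.1% of all genes) and 1 called by DESeq2. Here too DESeq2 called far more genes in all than edgeR. The IgG arm of this test differed fully in sex and the APB5 arm did not. With Xist as a further term 932 genes passed and 3 macrophage genes did so, namely Lyz2 (−7.04, adjusted P = 0.0134), Cd68 (−3.79, adjusted P = 0.0139) and Ms4a7 (−7.30, adjusted P = 0.0165). In that fit APB5 replicate 3 was the only APB5 library high in Xist, so sex and that library cannot be told apart within the APB5 group. Lyz2 had a difference of differences of −5.46 on the log2 scale (SE 1.49, adjusted P = 0.159 by edgeR). The next were Ms4a7 at −4.93 (SE 1.78), Cd68 at −2.59 (SE 0.876) and Cd14 at −2.30 (SE 1.04). They fell in size to −2.24, −0.99 and −0.38 without APB5 replicate 3. For Mrc1 it was −0.83 (SE 1.05), smaller than its error, and 0.27 without APB5 replicate 3. The median over the 9 genes was −0.832 and that over all genes −0.0239. Without APB5 replicate 3 the medians were 0.168 and −0.031, and the value for Lyz2 was −2.54.

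Across the 12 libraries the macrophage genes fell into patterns that are given as descriptions, since the libraries share APB5 replicate 3 as an extreme. Pearson's r of log2 CPM was 0.938 to 0.951 between Lyz2, Cd68 and Cd14, and 0.968 between Lyz2 and Ms4a7. Over the 11 libraries other than APB5 replicate 3 these were 0.617 to 0.819 and 0.903. Mrc1 was nearer to F13a1 (0.892) than to Cd68 (0.671), and Cd163 nearer to F13a1 (0.887) and Mrc1 (0.796) than to Lyz2 (0.404). This order was the same over the 11 libraries, at 0.856 and 0.373 for Mrc1 and 0.902, 0.828 and 0.348 for Cd163. Lyve1 had negative values with all genes except Ly6c2, from −0.190 with F13a1 to −0.525 with Pf4. Among all genes tested with a mean of at least 1 CPM, those most like Lyz2 were Tmem176a, Cfb and Tnfrsf1b (0.985, 0.985 and 0.983 over 12 libraries). Those most like Cd68 were Arpc1b, Mxra8 and Chil1 (0.987, 0.987 and 0.984), and those most like Cd14 were Mrc2, Tmbim1 and Fgl2 (0.977, 0.973 and 0.972). Those most like Lyve1 were Exoc7, Miga2 and Cs (0.886, 0.884 and 0.883), of which Cs encodes the citrate synthase of mitochondria.

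Genes that work with the markers were followed as lists. Of 12 other perivascular and border macrophage genes, Cd209b, Cd209f and Cd209g were at 0 in all libraries. Of the 7 tested between APB5 and IgG all had a log2 fold change above 0, with a median of 0.68 and 0 called, and 6 were tested between APB5+Mino and APB5, with a median of −0.951 and 0 called. Without APB5 replicate 3 these medians were 0.221, with 4 of the 7 above 0, and −0.46. Stab1, a scavenger receptor of this list, was at 3.62 to 5.63 CPM in IgG, 5.95, 6.19 and 25.9 CPM in APB5, and 3.78 to 4.11 CPM in APB5+Mino retinas. The 10 genes of the CD14 and TLR4 pathway had a median of 0.418 in APB5 against IgG and −0.637 in APB5+Mino against APB5, with 9 tested and 0 called in each, and 0.368 and −0.421 without that library. The 8 genes that handle hemoglobin and its iron, the partners of Cd163, had a median of 0.624 in APB5 against IgG (0.0537 without APB5 replicate 3) with 0 called. In APB5+Mino against APB5 the median of the 7 tested was −0.70 (−0.353 without that library), and 1 was called, where 1.66% of all genes were. It was Hmox1, heme oxygenase 1, lower by edgeR at −2.54 on the log2 scale (SE 0.539, adjusted P = 0.0494, but 0.0641 with the replicate block) and −1.65 without APB5 replicate 3. The call was lost without APB5 replicate 1 (adjusted P = 0.105) and when a single APB5+Mino library was left out (0.126 to 0.214), and the call of Pdpn below was lost without the same libraries (0.105 to 0.214). Hmox1 was at 17.6, 12.4 and 52.4 CPM in APB5 and 4.46, 4.74 and 5.09 CPM in APB5+Mino retinas. Of 8 genes for monocyte recruitment and macrophage growth factors, 5 were tested in both of these comparisons, with medians of 0.954 and −0.955 and 0 called, and of 0.0925 and −0.42 without APB5 replicate 3. Its Ccl2, the main monocyte attractant and named after its values were seen, had 11, 6 and 3 counts in IgG, 26, 17 and 545 in APB5 and 7, 11 and 5 in APB5+Mino libraries. For Lyve1, which also marks lymphatic endothelium, a list of 5 lymphatic endothelial markers was followed. It was led by Prox1, at a mean of 192 CPM over the 12 libraries. Of its 5 genes 3 were tested in APB5+Mino against APB5, with Pdpn called lower (−1.76, adjusted P = 0.0488 by edgeR, but 0.0641 with the replicate block, and −1.17 without APB5 replicate 3). Flt4 was at −0.39 (adjusted P = 0.136 by edgeR) and Prox1 at 0.26 (adjusted P = 0.219 by edgeR), where Lyve1 was at 0.29. The remaining 2, Mmrn1 and Ccl21a, had 0 to 3 and 0 to 15 counts per library. Which retinal cells held Prox1, and the part of lymphatic cells in the Lyve1 level, were not tested. For Pf4, the 8 platelet genes, led by Gp1bb, summed to 46 CPM in APB5 replicate 3 and 19.3 to 34.3 CPM in the other libraries. Of that sum Gp1bb made up 41.4 CPM and Itga2b 4.50 CPM, only these 2 genes could be tested, and Gp9 and Tubb1 had 0 counts in all APB5 libraries.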

How the data were processed

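Poly-A RNA of retinas was sequenced by the authors with a stranded mRNA kit on an Illumina sequencer, with bcl2fastq 2.20 and DRAGEN on mm39 per the labels. The deposited values are raw counts per gene. 3 columns of APB5 libraries were repeated in the table with identical values and used once, and tables with the authors' own fold changes and p-values were not used. The 10 genes and all lists were chosen with earlier results of these data known. edgeR 4.0.16 (R 4.3.3) was fitted on the 6 libraries of 2 groups after TMM scaling and filterByExpr, with a prior count of 2, and a gene was called at adjusted P ≤ 0.05 and at least 1 in size on the log2 scale, two-sided. Alternatives used DESeq2 1.42.0 and limma 3.58.1, and the fits were tested on simulated data. CPM used TMM-scaled totals. Exact permutation of 3 against 3 libraries cannot give a p below 0.1. No 2 libraries of a group were duplicates. Same-numbered APB5+Mino and APB5 libraries deviated together (r of 0.116, 0.169 and 0.127), so their numbers were taken as pairs, and in the other comparisons at least 1 pair was under 0.1. These values are weak, and single pairs in other comparisons reached 0.174 with the same number and 0.189 with different numbers. Named were the 10 genes, of each list the 4 most abundant genes and up to 4 called per comparison, the paralogs, Xist, 4 Y-linked genes and the 3 genes most like each abundant marker. Gene models were GENCODE vM39 and promoters came from RefSeq (GRCm38.p6), placed on GRCm39 by exact match.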

Additional observations from a re-analysis of the deposited data

How the results depend on the processing

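The number of genes passing edgeR's test depended on the setting in every comparison, and so did the macrophage genes between APB5+Mino and APB5. In APB5 against IgG the main count of 0 genes became 5 with no count filter, 87 with DESeq2, 27 with voom and quality weights, 7 with all 12 libraries fitted together and 1183 with log2 CPM of Xist as a covariate. Macrophage genes passing were 1 with DESeq2 (Lyz2) and 4 with the Xist covariate (Lyz2, Cd68, Cd14 and Ms4a7). In every fit with that covariate, sex and APB5 replicate 3 cannot be told apart within the APB5 group. Leaving out 1 library at a time gave 0 to 21 genes, the 21 without APB5 replicate 3.

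In APB5+Mino against APB5 the 336 genes became 977 with no fold threshold, 5 with library size only, 568 with no count filter, 0 with the replicate block, 1548 with DESeq2, 1433 with voom, 1623 with all 12 libraries, 1922 with the Xist covariate and 572 in the libraries low in Xist. The macrophage genes passing were 3, 0, 4, 5, 5, 6 and 4 for no count filter, the replicate block, DESeq2, voom, all 12 libraries, the Xist covariate and the libraries low in Xist. Leaving out 1 library gave 0 to 1789 genes and 0 to 5 macrophage genes. There were 0 genes without any 1 of the APB5+Mino libraries, 1 without APB5 replicate 1, 1789 without APB5 replicate 2 and 923 without APB5 replicate 3. The sign of all 7 tested macrophage genes was kept under every alternative run in this comparison. The block changed no call of a macrophage gene in any comparison.

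In IgG+Mino against IgG the 6 genes became 15 with no count filter, 21 with DESeq2, 124 with voom and 0 with all 12 libraries or the Xist covariate, and 6 to 10 with 1 library left out. In APB5+Mino against IgG+Mino the 246 genes became 1621 with no fold threshold, 588 with voom and 0 with all 12 libraries or the Xist covariate, and 0 to 458 with 1 library left out, the 458 without IgG+Mino replicate 1. No macrophage gene passed in these 2 comparisons under any setting run. For the interaction the 3 genes became 34 with no count filter, 388 with DESeq2, 1046 with voom and 932 with the Xist covariate, with 1, 1 and 3 macrophage genes under the last 3, and 0 to 113 genes and 0 to 1 macrophage gene with 1 library left out.

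Signs turned for small differences and for some larger ones. Among the larger were Mrc1 in APB5 against IgG (0.83 in the main fit) and Lyz2 in IgG+Mino against IgG (−0.90 in the main fit). In APB5 against IgG F13a1 was 0.0068 with library size only and 0.61 with the Xist covariate, Mrc1 −0.19 and Lyve1 0.050 with voom, and with 1 library left out F13a1 ran from −1.0 to 0.39, Lyve1 from −0.31 to 0.11 and Mrc1 from −0.30 to 1.25. In IgG+Mino against IgG Cd68 was −0.0054 with library size only and ran from −0.040 to 0.26 with 1 library left out, and with the Xist covariate Lyz2 was 1.74 and Cd14 1.08. In APB5+Mino against IgG+Mino Lyve1 ran from −0.11 to 0.033. For the interaction F13a1 was 0.11 with the replicate block and 0.63 with voom, Mrc1 0.11, Lyve1 −0.14 and Pf4 0.78 with voom, and Cd163 −0.21 with the Xist covariate. With 1 library left out it ran from −0.82 to 0.55 for F13a1, −1.24 to 0.27 for Mrc1, −0.14 to 0.29 for Lyve1 and −1.08 to 0.25 for Pf4. The cause of these changes was not tested. Ly6c2, Cd163, F13a1, Ms4a7 and Pf4 had few counts, and differences in them are limited by depth.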

Other observations

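Siglec1, or CD169, a sialic acid receptor of border and lymphoid macrophages, differed between APB5+Mino and IgG+Mino retinas, where the 10 macrophage genes overlapped. It had 12, 17 and 14 counts in IgG+Mino and 49, 55 and 57 in APB5+Mino libraries, and it was called higher there (log2 fold change 1.82, SE 0.266, adjusted P = 0.0125 by edgeR). It was the 1 gene called of the 5 tested in its list, where 1.23% of all genes were called. No gene passed in this comparison with all 12 libraries fitted together or with the Xist covariate, so Siglec1 did not either. It did not pass without IgG+Mino replicate 3 or without APB5+Mino replicate 2 or 3 (adjusted P of 0.0681 to 0.087). Its level in APB5+Mino retinas (0.877 to 1.08 CPM) was close to that of APB5 replicate 3 (1.06 CPM) and was above the other APB5 libraries (0.163 and 0.274 CPM) and the IgG libraries (0.207 to 0.437 CPM). The APB5+Mino library high in Xist had 1.07 CPM, between the 2 low in Xist (0.877 and 1.08 CPM).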
